A study of Mus musculus with 11 samples.

Results

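The genes described here encode 9 secreted proteins of connective tissue and 1 membrane receptor. The secreted ones include dermatopontin (Dpt), decorin (Dcn), lumican (Lum), microfibril-associated protein 5 (Mfap5) and fibronectin (Fn1). Also secreted are matrix Gla protein (Mgp), growth differentiation factor 10 (Gdf10), insulin-like growth factor binding protein 3 (Igfbp3) and cytokine-like 1 (Cytl1). The receptor is integrin alpha8 (Itga8), which binds fibronectin among them. The genes are 10 of 30142 that the array annotation pairs with a symbol of their own. They were picked from earlier results on these arrays, several of them for a high carotid body level, so their carotid body differences are given as a description without a test. The label under which they were grouped calls them secreted, which is not so for Itga8, a transmembrane protein.

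The series profiled RNA of the superior cervical ganglion, carotid body and adrenal medulla of C57B6 mice of both sexes, 2 months old and with no treatment named in the labels. The carotid body group (CB) has 3 arrays, each from a pool of 10 mice. The adrenal medulla group (AM) and the superior cervical ganglion group (SCG) have 4 arrays each, every one from a pool of 3 mice. A replicate is therefore a pool of whole dissected tissue, and in such samples fewer cells of a type and less RNA per cell cannot be told apart. The carotid body is the small arterial organ that senses blood oxygen, the adrenal medulla secretes adrenaline, and the ganglion holds sympathetic neurons. Values are log2 RMA signals, RMA being a method that corrects background, normalises arrays to each other and summarises the probes of a transcript. Several signals exceed the limit of a 16-bit scan, so folds hold on the scale of the deposited values, with 1 log2 unit read as 2-fold. Signals of different genes come from different probes and were not set against each other.

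Fibroblasts and vascular mural cells surround themselves with collagen fibrils, elastic microfibrils and fibronectin. Small leucine-rich proteoglycans such as decorin and lumican bind collagen and set fibril spacing, while dermatopontin joins decorin to the fibril. The same matrix holds growth factors of the BMP, TGF-beta and insulin-like growth factor families in store, and cells grip it through integrins. In the carotid body this connective tissue lies around the vessels and around the lobules of oxygen-sensing glomus cells.

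The carotid body arrays stood apart from one another in genes of neighbouring tissues. Carotid body replicate 3 held thyroglobulin (Tg), the thyroid hormone precursor, at 18.56, where replicates 1 and 2 had 5.04 and 5.13. Over the 5 measured of 8 thyroid and parathyroid markers, the summed log2 signal was 25.5 to 40.6 in carotid body, 24.3 to 24.7 in adrenal medulla and 26.2 to 28.6 in ganglion. Carotid body replicate 2 held skeletal muscle transcripts. Its fast myosin gene Myh4 stood at 7.89 against 4.81 and 4.91 on the other carotid body arrays, and the 7 muscle markers summed to 38.2 to 51.2 in carotid body, 36.7 to 37.7 in adrenal medulla and 36.9 to 38.6 in ganglion. Carotid body replicate 1 had the highest mean of 7 sympathoadrenal and neuron markers, at 15.18 against 12.67 and 13.97. The ganglion arrays had 16.40 to 16.92. On carotid body replicate 1 alone the neuron gene Nefl differed from ganglion by -3.045, against -4.79 over the 3 arrays. The adrenal medulla arrays carried 8 of 8 adrenal cortex markers, summed to 126 to 128 against at most 45.8 in either other tissue. The part of these transcripts in the results was not tested. Carotid body replicate 1 had the low values of both Tg and Myh4, and the values on it alone are given with each member's values. That array was also the carotid body array nearest the ganglion in neuron markers.

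Promoter sequence was held for 5 members (Dpt, Itga8, Gdf10, Igfbp3 and Cytl1) in a RefSeq table of the GRCm38.p6 assembly. Shown here are the 250 bases before the start of the 3 of them (Dpt, Igfbp3 and Cytl1) whose smaller carotid body difference was largest. They make a contrast in base composition among members that share a high carotid body level. Their levels in the other tissues did not follow 1 pattern. Capitals mark GCGTG on either strand, a form of the core of the hypoxia response element, and TATATA or TTTAAA, variants of the TATA box. Dpt lies on the plus strand at chr1:164796413-164796662, Igfbp3 on the minus strand at chr11:7213924-7214173, and Cytl1 on the plus strand at chr5:37735269-37735518.
Dpt: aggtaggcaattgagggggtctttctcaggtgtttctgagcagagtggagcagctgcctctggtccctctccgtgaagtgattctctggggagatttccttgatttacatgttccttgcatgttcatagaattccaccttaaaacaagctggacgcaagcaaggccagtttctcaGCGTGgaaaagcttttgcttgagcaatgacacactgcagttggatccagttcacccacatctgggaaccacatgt
Igfbp3: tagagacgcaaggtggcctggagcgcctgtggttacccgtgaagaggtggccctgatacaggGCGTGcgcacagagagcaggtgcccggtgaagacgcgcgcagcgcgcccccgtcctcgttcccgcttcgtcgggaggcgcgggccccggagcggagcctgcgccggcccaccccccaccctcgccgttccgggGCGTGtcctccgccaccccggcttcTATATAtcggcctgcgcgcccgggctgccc
Cytl1: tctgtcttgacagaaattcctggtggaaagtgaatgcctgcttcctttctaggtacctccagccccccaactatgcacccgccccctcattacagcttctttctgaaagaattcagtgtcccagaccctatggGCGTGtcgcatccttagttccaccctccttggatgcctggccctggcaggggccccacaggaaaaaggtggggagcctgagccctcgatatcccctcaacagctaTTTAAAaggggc
The CpG content relative to base composition was 0.202 in the Dpt promoter, 0.219 in that of Cytl1 and 0.958 in that of Igfbp3, where the median of 32851 promoters of this length was 0.374. Itga8 and Gdf10, at 0.906 and 0.928, lay near Igfbp3. The Dpt and Cytl1 promoters thus lay below that median and the other 3 above it. Of all promoters, 30.1% had a lower value than Dpt and 32.4% a lower one than Cytl1. For Itga8, Gdf10 and Igfbp3 these shares were 88.65%, 90.2% and 91.93%, farther from the middle. GCGTG was present in 4 of the 5 members' promoters and in 28.2% of all promoters. TATATA was found in that of Igfbp3 alone among the 5, beginning 30 bases before the start, and in 5.25% of all promoters. TTTAAA was found in that of Cytl1 alone, beginning 12 bases before the start, and in 12.1% of all. TATAAA, the standard TATA box, was in none of the 5 and in 12.4% of all, and GGGCGG, the GC box, was in 2 of the 5 (Gdf10 and Cytl1) and in 32.7% of all. These matches describe letters only. GCGTG itself holds a CpG, and its shares were not matched for CpG content.

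All 10 members had their highest signal in carotid body, and none of their carotid body arrays overlapped with an array of either other tissue, as for 6.85% of all genes. Since the members were chosen for this, nothing is read from their count. A gene was called where limma's adjusted p was under 0.05 and the difference at least 2-fold. By that rule 6.06% of all genes were called higher in carotid body than adrenal medulla, 5.61% higher than in ganglion and 2.42% higher than in both. The members' difference from adrenal medulla ran from 2.50 for Gdf10 to 6.47 for Cytl1, and the difference from ganglion from 1.77 for Dcn to 9.26 for Gdf10.

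**Figure D1:**
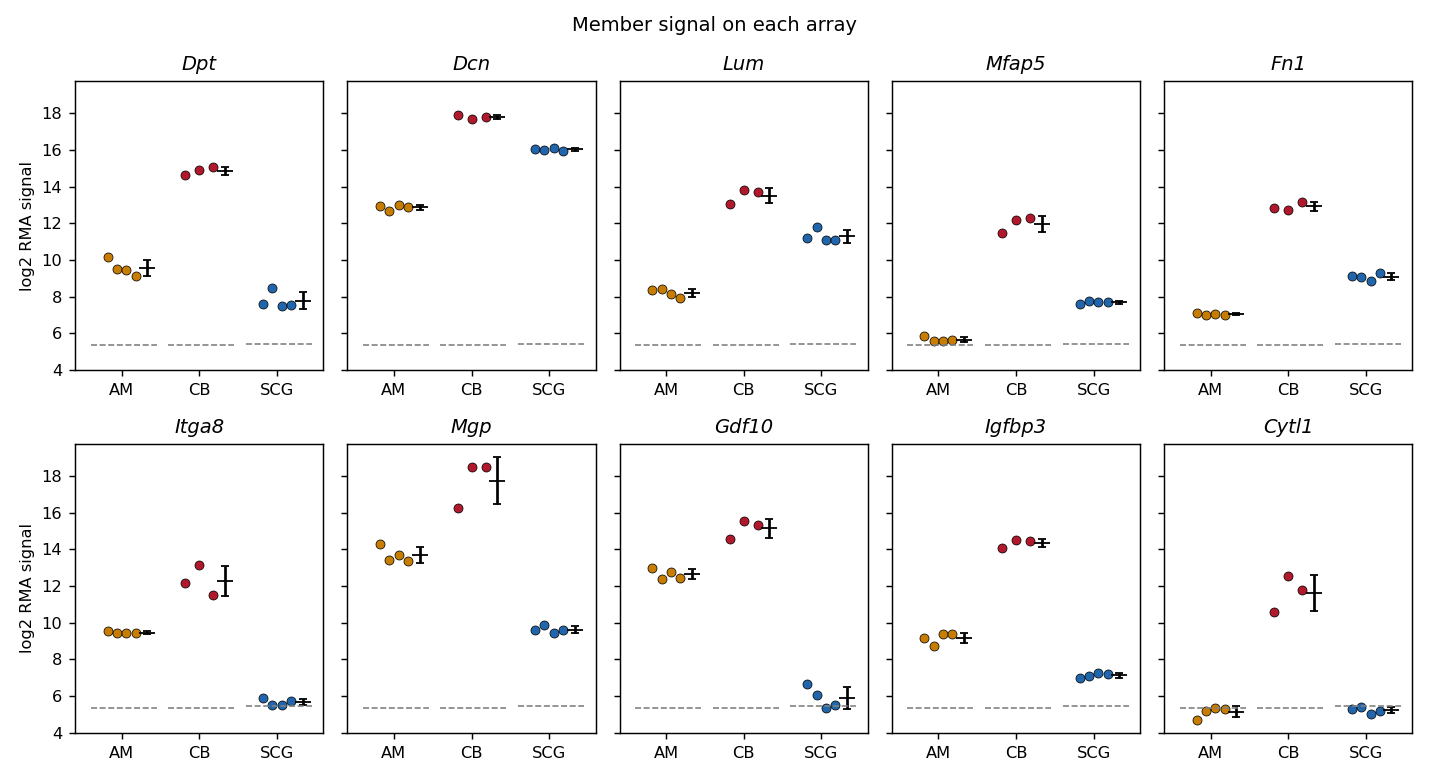
Log2 RMA signal of each member on each array (points; replicate 1 leftmost), with the tissue mean and SD at the right of the points and the background bound as a dashed line. AM is adrenal medulla (n = 4), CB carotid body (n = 3) and SCG superior cervical ganglion (n = 4). The carotid body points lie above both other tissues in all 10 panels, while the order of AM and SCG differs between panels.

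Among the collagen-binding members, Dpt promotes collagen fibril formation. Its signal was 14.63, 14.93 and 15.06 on carotid body replicates 1 to 3. It was 10.17, 9.49, 9.48 and 9.14 on the adrenal medulla arrays and 7.59, 8.48, 7.50 and 7.53 on the ganglion arrays. The 3 tissues did not overlap, and ganglion replicate 2 lay apart from the rest of its group. The carotid body mean of 14.87 ± 0.22 (SD, n = 3) was 39.4-fold that of adrenal medulla, 9.57 ± 0.43 (n = 4), and 136-fold that of ganglion, 7.78 ± 0.47 (n = 4). On carotid body replicate 1 alone the log2 differences of Dpt were 5.06 and 6.85, against 5.30 and 7.09 over the 3 arrays.

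Dcn encodes decorin, which coats collagen fibrils and binds TGF-beta. Its signal was 17.90, 17.69 and 17.81 in carotid body. It was 12.93, 12.68, 12.98 and 12.89 in adrenal medulla and 16.05, 16.03, 16.13 and 15.93 in ganglion. The ganglion was thus the nearer tissue, with arrays that varied little. The difference was 30.5-fold from adrenal medulla (4.93 log2) and 3.40-fold from ganglion (1.77 log2), the smallest of the members against the ganglion. On carotid body replicate 1 alone these were 5.03 and 1.87 log2.

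Lum encodes lumican, a keratan sulphate proteoglycan of collagen fibrils and the next gene to Dcn in RefSeq order. Its signal was 13.04, 13.82 and 13.70 in carotid body. It was 8.39, 8.42, 8.12 and 7.95 in adrenal medulla and 11.22, 11.79, 11.07 and 11.07 in ganglion. As with Dcn, the ganglion lay between the other tissues without overlap. The carotid body mean was 39.3-fold that of adrenal medulla and 4.69-fold that of ganglion. Its log2 differences were 5.30 and 2.23, or 4.82 and 1.76 on carotid body replicate 1 alone.

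Mfap5 encodes a glycoprotein of the microfibrils that scaffold elastic fibres. Its signal was 11.49, 12.16 and 12.27 in carotid body, 5.85, 5.60, 5.57 and 5.63 in adrenal medulla and 7.60, 7.79, 7.69 and 7.71 in ganglion. The adrenal medulla arrays were just above the background bound of 5.35, a level that 95% of 349 genes taken as silent did not reach in that tissue. Fn1, the adhesive matrix protein fibronectin, had signals of 12.86, 12.72 and 13.18 in carotid body, 7.10, 6.98, 7.04 and 7.00 in adrenal medulla and 9.13, 9.10, 8.87 and 9.30 in ganglion. Both genes ran in the order carotid body, ganglion, adrenal medulla, with no overlap. Carotid body exceeded adrenal medulla 79.3-fold for Mfap5 and 59.2-fold for Fn1, and ganglion 19.4-fold and 14.1-fold. With carotid body replicate 1 alone the log2 differences of Mfap5 went from 6.31 to 5.83 and from 4.27 to 3.79. Those of Fn1 went from 5.89 to 5.83 and from 3.82 to 3.76.

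Itga8 encodes the integrin alpha chain that, with integrin beta1, binds fibronectin and nephronectin. Its signal was 12.14, 13.12 and 11.51 in carotid body. It was 9.57, 9.42, 9.42 and 9.42 in adrenal medulla and 5.88, 5.54, 5.53 and 5.72 in ganglion. The carotid body arrays spread over 1.61 log2, the adrenal medulla was the intermediate tissue, and the ganglion lay near its background bound of 5.45. Carotid body was 6.98-fold above adrenal medulla and 96.6-fold above ganglion, with log2 differences of 2.80 and 6.59, or 2.69 and 6.48 on carotid body replicate 1 alone.

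Mgp encodes a vitamin K-dependent inhibitor of calcification that also binds BMPs. Its signal was 16.26, 18.50 and 18.50 in carotid body. It was 14.29, 13.43, 13.69 and 13.39 in adrenal medulla and 9.59, 9.89, 9.42 and 9.59 in ganglion. Carotid body replicate 1 was 2.24 log2 below the highest of its group, the widest spread of any member, yet above every adrenal medulla array. The difference from adrenal medulla was 4.05 over the 3 arrays, 4.80 without carotid body replicate 1 and 2.56 on that array alone. From ganglion the corresponding values were 8.13, 8.88 and 6.64.

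Gdf10 encodes a secreted ligand of the TGF-beta superfamily, also called BMP3b. Its signal was 14.56, 15.56 and 15.35 in carotid body and 12.99, 12.39, 12.77 and 12.46 in adrenal medulla. In ganglion it was 6.68, 6.04, 5.35 and 5.51, where 1 array lay under the bound. The ganglion stood far below both other tissues, at a difference of 9.26 log2 from carotid body, or at least 603-fold with that array set to the bound. The difference from adrenal medulla was 2.50 log2 (5.67-fold), the smallest of the members. On carotid body replicate 1 alone the differences were 1.91 from adrenal medulla and 8.67 from ganglion.

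Igfbp3 encodes the main carrier of insulin-like growth factors in blood, which also acts near cells that secrete it. Its signal was 14.08, 14.52 and 14.44 in carotid body, 9.15, 8.76, 9.39 and 9.36 in adrenal medulla and 6.98, 7.09, 7.27 and 7.19 in ganglion. The order of the tissues was that of Dpt, without overlap. Carotid body was 36.3-fold above adrenal medulla and 148-fold above ganglion, with log2 differences of 5.18 and 7.21, or 4.92 and 6.95 on carotid body replicate 1 alone.

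Cytl1 encodes a small secreted protein first found in CD34+ haematopoietic cells and later in cartilage. Its signal was 10.56, 12.52 and 11.77 in carotid body, spread over 1.96 log2. It was 4.71, 5.21, 5.37 and 5.31 in adrenal medulla and 5.32, 5.40, 5.04 and 5.20 in ganglion. All 4 ganglion arrays and 3 of 4 adrenal medulla arrays were under their bounds, so the gene was clearly above background in carotid body alone among the 3 tissues. The differences were 6.47 and 6.38 log2, or at least 76.9-fold and at least 72.2-fold, and were 5.41 and 5.33 on carotid body replicate 1 alone.

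Adrenal medulla and ganglion divided the members in opposite directions. In adrenal medulla 5 were higher than in ganglion (Gdf10, Mgp, Itga8, Igfbp3 and Dpt), 4 were lower (Dcn, Lum, Fn1 and Mfap5), and Cytl1 did not pass the test. Of all genes, 5.72% were called higher in adrenal medulla and 7.5% lower. This contrast uses no carotid body array. Yet the adrenal medulla and ganglion arrays entered the carotid body differences by which members became known. Mgp, Gdf10, Igfbp3, Dpt and Itga8 became known against the ganglion, and all 5 were higher in adrenal medulla. Mfap5, Fn1 and Cytl1 became known against adrenal medulla, and Mfap5 and Fn1 were lower there. The choice of members may thus set these directions in whole or in part. The p-values given next are therefore no independent support for them.

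Gdf10 had the largest of these differences, 6.76 log2 (SE 0.30, at least 106-fold, limma adjusted p = 2.44e-08). Mgp followed at 4.08 (SE 0.44, 16.9-fold, limma adjusted p = 2.48e-05) and Itga8 at 3.79 (SE 0.26, 13.8-fold, limma adjusted p = 8.13e-07). Igfbp3 and Dpt were higher in adrenal medulla by 2.03 (4.08-fold, limma adjusted p = 1.17e-06) and 1.79 (3.46-fold, limma adjusted p = 0.00022). In the other direction, Dcn was lower in adrenal medulla by 8.96-fold, with a log2 difference of -3.16 (SE 0.08, limma adjusted p = 1.02e-09). Lum, Fn1 and Mfap5 had differences of -3.07, -2.07 and -2.03, with limma adjusted p of 6.31e-07, 1.17e-07 and 1.29e-06. For Cytl1 the difference was -0.09 (SE 0.33, limma adjusted p = 0.859), between tissues that were both under background. The 4 arrays of one tissue did not overlap the 4 of the other for the 9 called members, and nor did they for 36.9% of all genes. The two-sided exact permutation test gave p = 0.0286 for each of these, the smallest that 4 against 4 arrays allow, and p = 0.686 for Cytl1.

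**Figure D2:**
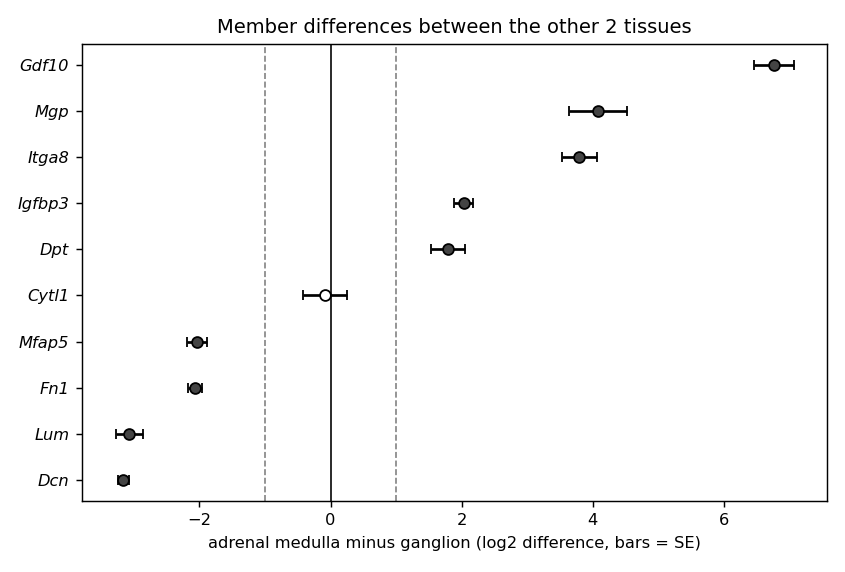
Log2 difference of adrenal medulla minus ganglion for each member (points; bars are the SE from limma), with dashed lines at 2-fold in either direction. Filled points passed the test. Members at the right, up to Gdf10 at 6.76, were higher in adrenal medulla, members at the left, down to Dcn at -3.16, were lower, and the open point is Cytl1.

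Other cell types differed between the same tissues. Of 8 endothelial markers, 7 were called higher in adrenal medulla than in ganglion and none lower, with summed log2 signals of 88.9 to 91.8 in adrenal medulla, 58.0 to 60.6 in ganglion and 86.2 to 86.7 in carotid body. All 6 measured of 8 glial markers were called lower in adrenal medulla, with sums of 49.7 to 50.8 against 66.4 to 71.8 in ganglion and 67.6 to 70.0 in carotid body. Of 12 measured fibroblast markers (14 listed), 1 was higher (Tcf21, 2.07) and 2 lower (Col3a1, -1.30, and Col15a1, -1.28) in adrenal medulla than in ganglion, with sums of 79.6 to 81.4 and 82.2 to 84.6. All 8 adrenal cortex markers were called higher in adrenal medulla. So were 4 of 7 pericyte and 2 of 8 smooth muscle markers, with none lower. Of 7 measured sympathoadrenal and neuron markers, 1 was called higher and 4 lower. The part of these cell types in the members' differences was not tested.

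The genes most like each member were named by Pearson's r over the 11 arrays. Such correlations rest mainly on the 3 tissue means and are a description. They compare the shape of profiles and not the size of the differences. The genes nearest to Gdf10 were Ldb2, Cd93 and Loxl1 (r = 0.993, 0.992 and 0.990), and those nearest to Mgp were Cbfa2t3, Ecscr and Myct1 (0.997, 0.994 and 0.994). Cd93, Ecscr and Myct1 are known as endothelial genes. Dpt was nearest to the interleukin-1 receptor Il1r1, the matrix gene Tnxb and the transcription factor Nfix (0.996, 0.996 and 0.994). Igfbp3 was nearest to Slit3, Kcnt2 and again Nfix (0.995, 0.994 and 0.993), and Itga8 to H2az2, Map3k20 and Fmo2 (0.992, 0.991 and 0.989). Some of these genes differed little between carotid body and adrenal medulla. Their means there were 8.79 and 8.37 for H2az2, 7.27 and 6.65 for Cbfa2t3, and 10.30 and 9.72 for Ldb2. Others differed more, such as Fmo2 (11.44 and 9.49) and Tnxb (10.43 and 7.94).

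On the other side, Dcn was nearest to the heparan sulphatase Sulf1, Entpd2 and Sparcl1 (r = 0.997, 0.997 and 0.996) and Lum to the fibroblast protease Fap, Bnc2 and Cpne8 (0.991, 0.989 and 0.989). Mfap5 was nearest to Ces1d, the BMP antagonist Chrdl1 and Scara3 (0.999, 0.998 and 0.998), and Fn1 to Scara3, Ntrk3 and Vit (0.997, 0.996 and 0.996). Cytl1 was nearest to Bcl11b, the smooth muscle gene Lmod1 and the mast cell tryptase Tpsb2 (0.997, 0.996 and 0.995). The mean of the 10 standardised profiles was followed most closely by the Wnt-responsive transcription factor Lef1 (0.998), then Serping1, Dlx5, Anpep, Ccdc80, Col5a1, Col6a2, Lrrc17, Anxa1 and Myh11 (0.995 to 0.992 in that order).

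Over the 11 arrays the 4 members lower in adrenal medulla correlated with one another at r of at least 0.923. The 5 members higher in adrenal medulla did so at r of at least 0.841. Both groups were formed from differences on these same arrays, and every member was highest in carotid body. High r within a group thus follows at least in part from the grouping and is not read as a finding. Pairs across the groups ran from 0.002 for Dcn and Gdf10, the lowest of all pairs, to 0.809 for Dpt and Mfap5. Mfap5 and Fn1 had the highest r of all pairs, 0.996. Once tissue means were removed, the members varied together far less. The median r of the deviations was 0.22 over 45 pairs, with 30 pairs above 0, and it lay between 0.09 and 0.35 under the alternatives tried. The highest was that of Mfap5 and Mgp, 0.96, followed by Dpt and Lum, 0.81, and Lum and Mgp, 0.75. The neighbours Dcn and Lum had r = -0.44, against 0.985 with the tissue means left in, and the lowest pair was Fn1 and Itga8 at -0.55. All these values are over 11 arrays that share normalisation, and they carry no test.

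Within the carotid body, replicate 1 was the lowest array for 7 members (Dpt, Lum, Mfap5, Mgp, Gdf10, Igfbp3 and Cytl1) and the highest for Dcn. Replicate 2 was the highest for 6 (Lum, Itga8, Mgp, Gdf10, Igfbp3 and Cytl1). The deviations from the carotid body mean on replicate 1 were -1.49 for Mgp and -1.05 for Cytl1. Cytl1, Lum, Mgp, Gdf10 and Igfbp3 ranked the arrays alike, with replicate 2 highest and replicate 1 lowest. For Mgp, replicates 2 and 3 were all but level, at 18.4999 and 18.4992. The 7 neuron markers had the reverse ranking, with mean deviations of 1.24, -1.27 and 0.03 on replicates 1 to 3. So did the glial markers (0.27, -0.14 and -0.12). Skeletal muscle markers (-0.65, 1.20 and -0.55) ranked the arrays as Cytl1 did. So did the immune (-0.17, 0.10 and 0.07), chondrocyte (-0.08, 0.05 and 0.03) and mesothelial markers (-0.06, 0.05 and 0.01). In these last lists and in glia, replicates 2 and 3 lay close together. Itga8 deviated by -0.12, 0.86 and -0.75 on replicates 1 to 3. The 8 smooth muscle markers ranked the arrays as Itga8 did (0.03, 0.25 and -0.29), as did the 7 adipocyte markers (-0.05, 0.40 and -0.35). The 12 fibroblast markers deviated by -0.14, -0.03 and 0.16. With 3 arrays these orders are a description, and the part of these cell types in the members' spread was not tested.

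**Figure D3:**
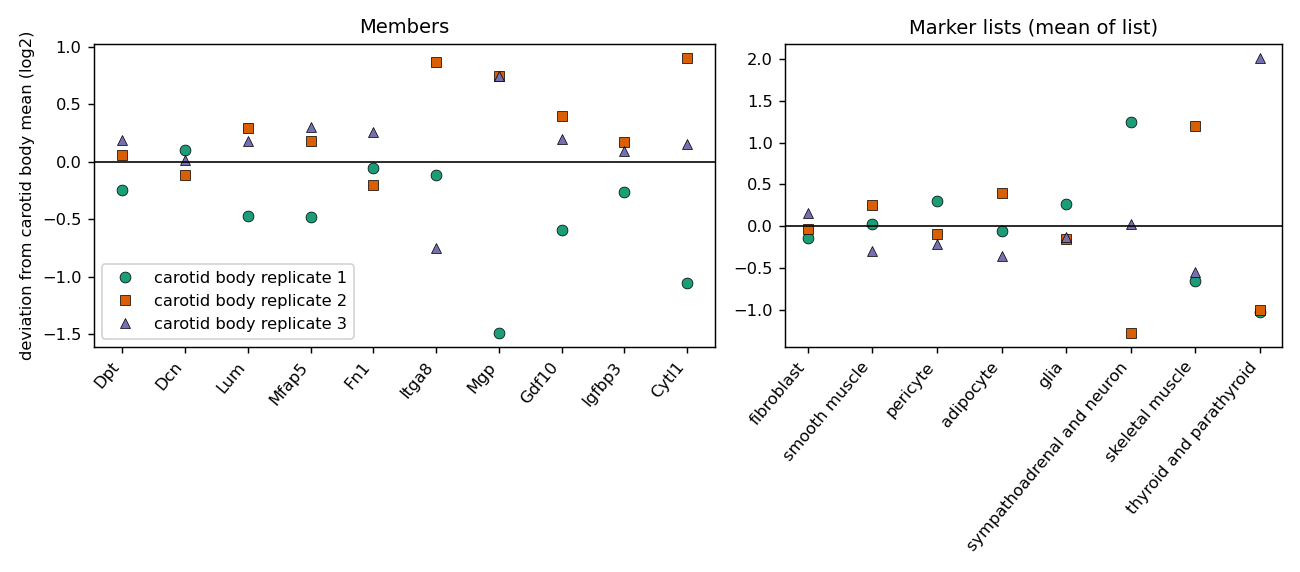
Deviation of each carotid body array from the carotid body mean, in log2 units, for the members (left) and for the mean of each marker list (right); the vertical axes differ. Replicate 1 (circles) is lowest for 7 members, replicate 2 (squares) is highest in skeletal muscle markers at 1.20, and replicate 3 (triangles) is highest in thyroid and parathyroid markers at 2.01.

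Related genes were taken from 8 lists of the members' families, partners and pathways, with the members left out. Of 141 measured genes (153 listed), 56 were higher in carotid body than adrenal medulla and 10 lower, where 6.06% and 4.95% of all genes were called. Against the ganglion 72 were higher and 5 lower, where all genes gave 5.61% and 8.28%. Of the 141, 46 were called higher in carotid body than in both. The median differences were 0.51 and 1.01, against 0.05 and -0.02 over all genes. Between adrenal medulla and ganglion 35 were higher and 19 lower, with a median of 0.15 against -0.08. On carotid body replicate 1 alone (the lone array assumed to vary like the other groups), 53 were higher and 11 lower than adrenal medulla, and 70 higher and 4 lower than in ganglion. The lists were chosen with results of these arrays known, and no test was made over them.

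**Figure D4:**
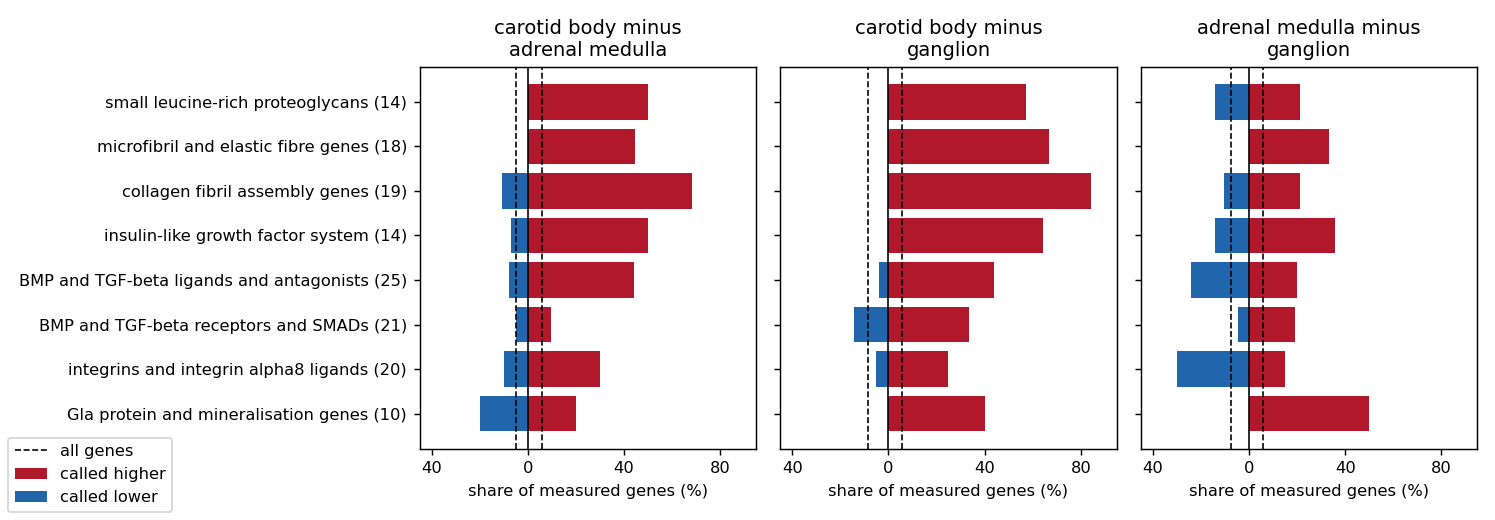
Share of measured genes in each related list that were called higher (to the right) or lower (to the left) in each comparison, in percent; the number measured is in brackets and dashed lines give the share of all 30142 genes. The bars to the right are longest for collagen fibril assembly genes in both carotid body comparisons (13 and 16 of 19).

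Of 14 small leucine-rich proteoglycan genes, the family of Dcn and Lum, 7 were called higher in carotid body than adrenal medulla and 8 higher than in ganglion, with none lower. Between adrenal medulla and ganglion the family took both directions, with Bgn, Ogn and Prelp higher in adrenal medulla and Omd and Ecm2 lower, like Dcn and Lum. The genes are described here by neighbourhood on the chromosome. Next to Dcn and Lum stand Kera and Epyc, the cornea and cartilage proteoglycan genes, and both were under the background bound on every array. The neighbours Ecm2, Aspn, Omd and Ogn, by contrast, were all called higher in carotid body than in both other tissues. Omd (osteomodulin) reached 13.61 ± 0.44 in carotid body (SD, n = 3) against 7.85 ± 0.26 in adrenal medulla and 9.33 ± 0.08 in ganglion (n = 4 each), and Ecm2 13.33 ± 0.29 against 7.58 ± 0.08 and 9.24 ± 0.17. The differences of Aspn, which encodes asporin, a collagen-binding inhibitor of TGF-beta, were 4.09 and 4.92.

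In the neighbourhood of Optc, Prelp and Fmod, the last 2 were called higher in carotid body and Optc was not. Prelp differed by 2.03 and 3.35, and Fmod (fibromodulin, of the same class as Lum) by 1.69 and 1.29 from tissues where it was under background. Bgn encodes biglycan, the closest paralogue of decorin. It had 17.65 ± 0.25 in carotid body, 17.34 ± 0.07 in adrenal medulla and 14.94 ± 0.17 in ganglion. The carotid body difference of Bgn from adrenal medulla, 0.31 (SE 0.13), did not pass the test (limma adjusted p = 0.0928), whereas the one from ganglion, 2.71, did (limma adjusted p = 1.21e-07). Between adrenal medulla and ganglion, Bgn differed by 2.40 and Dcn by -3.16, so this pair of paralogues was called in opposite directions.

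**Figure D5:**
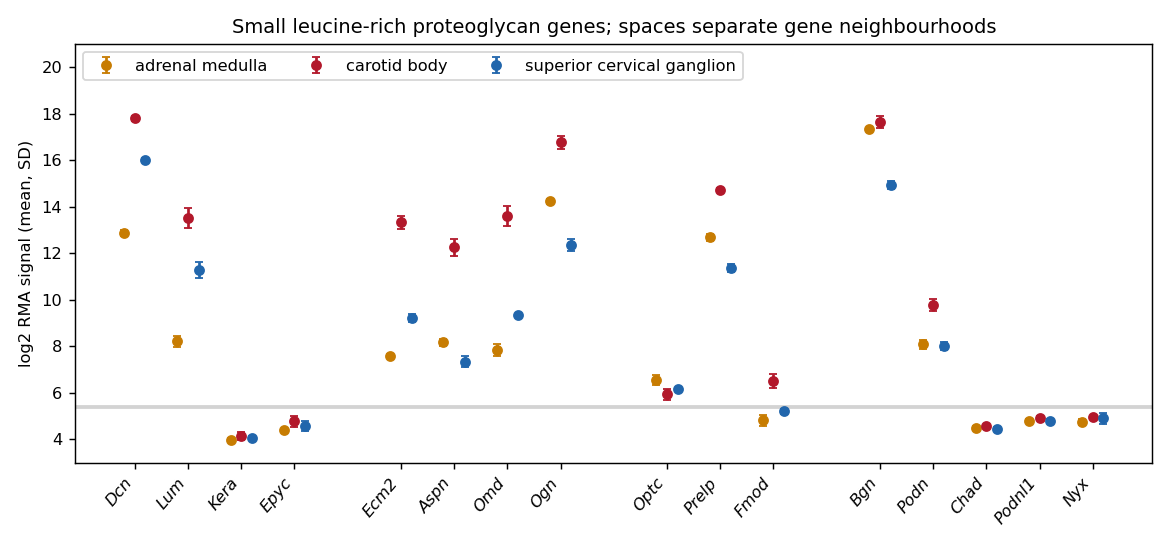
Mean log2 RMA signal and SD of small leucine-rich proteoglycan genes in the 3 tissues (n = 4 adrenal medulla, 3 carotid body, 4 ganglion), grouped by genes that neighbour each other in RefSeq order, with ungrouped genes at the right; the grey band spans the background bounds. Signals of different genes are not comparable in level; the tissue order within a gene is, and Kera and Epyc lie under the band while Dcn and Lum lie above it.

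Of 18 measured microfibril and elastic fibre genes (21 listed), 8 were called higher in carotid body than adrenal medulla and 12 higher than in ganglion, with none lower. Ltbp4, which ties latent TGF-beta to elastic microfibrils, differed by 2.93 and 4.92, and elastin (Eln) by 2.27 and 3.88. Mfap2 encodes the microfibril protein most like Mfap5 and did not share its pattern. Its means were 8.28 ± 0.50 in carotid body, 8.58 ± 0.43 in adrenal medulla and 6.45 ± 0.16 in ganglion. The difference of Mfap2 from adrenal medulla was -0.30 (limma adjusted p = 0.444), and between adrenal medulla and ganglion it was 2.13 (limma adjusted p = 3.53e-05), where Mfap5 had -2.03. No gene of the list was called lower in adrenal medulla than in ganglion and 6 were called higher. Efemp1 (fibulin-3) and the elastin cross-linking gene Loxl1 were among these, by 4.13 and 3.18.

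In both carotid body comparisons, collagen fibril assembly genes had the largest share called higher of the 8 lists. Of 19 measured (20 listed), 13 were higher in carotid body than adrenal medulla and 2 lower, and 16 were higher and none lower than in ganglion. Col1a1 differed by 5.61 and 4.94, Col3a1 by 5.44 and 4.14, and Col12a1 by 4.92 and 5.45 (5.51 and 6.03 on carotid body replicate 1 alone). The procollagen C-proteinase enhancers divided. Pcolce2 stood at 10.41 ± 0.09 in carotid body, 4.94 ± 0.09 in adrenal medulla, under background, and 5.93 ± 0.11 in ganglion, whereas Pcolce was lower in carotid body than adrenal medulla by a difference of -1.25. The collagen lysyl hydroxylase Plod2 was lower too, at -3.01.

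In the insulin-like growth factor system, 7 of 14 measured genes (16 listed) were called higher in carotid body than adrenal medulla and 1 lower, and 9 higher and none lower than in ganglion. The 1 lower was Igf2r, the receptor that clears Igf2, at -1.25, which fell under 2-fold (-0.85) on carotid body replicate 1 alone. Igfbp4 reached 14.11 ± 0.17 in carotid body against 8.58 ± 0.23 in adrenal medulla and 10.77 ± 0.28 in ganglion. Igfbp5, the closest relative of Igfbp3 in this list, reached 15.11 ± 0.17 against 11.36 ± 0.33 and 10.30 ± 0.35. The ligands were called in the same direction, Igf1 by 1.71 and 2.05 and Igf2 by 1.03 and 2.47. The Igf2 difference from adrenal medulla fell under 2-fold without adrenal medulla replicate 2 or 4 and with arrays centred on their medians, 0.88 at the lowest. The binding proteins took both orders of the other tissues. Igfbp4 and Igfbp6 were lower in adrenal medulla than in ganglion (-2.19 and -2.05), and Igfbp7 higher (3.74).

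Among BMP and TGF-beta ligands and antagonists, the setting of Gdf10, 11 of 25 measured genes (27 listed) were called higher in carotid body than adrenal medulla and 2 lower, and 11 higher and 1 lower than in ganglion. Chrdl1, which encodes a secreted BMP antagonist, had the largest difference from adrenal medulla, with 11.35 ± 0.37 in carotid body, 5.95 ± 0.16 in adrenal medulla and 7.70 ± 0.20 in ganglion. Bmp3 encodes the closest paralogue of Gdf10 and ran the other way against the ganglion. The means of Bmp3 were 6.39 ± 0.26 in carotid body, 5.37 ± 0.39 in adrenal medulla and 8.64 ± 0.35 in ganglion. Its carotid body difference from ganglion was -2.25 (limma adjusted p = 2.89e-05), where that of Gdf10 was 9.26. The Bmp3 difference from adrenal medulla, 1.02, was called in the fit reported but fell under 2-fold without adrenal medulla replicate 4, without carotid body replicate 1 and under 4 other settings, 0.85 at the lowest. Bmp7, another BMP ligand, was lower in carotid body than adrenal medulla (-1.34) and higher than in ganglion (3.89). The other gene lower than in adrenal medulla was Fstl3, an activin-binding protein (-1.42).

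Of 21 receptors and SMADs of this pathway, 2 were called higher in carotid body against adrenal medulla (Acvrl1 and Acvr1c, by 1.26 and 1.15) and 1 lower (Tgfbr3, -2.05). Acvr1c fell just under 2-fold with median centring (0.998). Against the ganglion 7 were higher and 3 lower, led by endoglin (Eng), an endothelial co-receptor, at 5.15. The 3 lower were the BMP receptor Bmpr1b (-1.57) and the signal transducers Smad9 (-1.19) and Smad2 (-1.03). Smad2 lost its call without carotid body replicate 2 or ganglion replicate 4 and under 3 other settings, at -0.73 in the weakest. The difference between these counts and those of the ligands was not tested.

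For Itga8, the partner chain and ligand differed. Itgb1, which pairs with it, had 14.68 ± 0.07 in carotid body, 14.62 ± 0.08 in adrenal medulla and 14.66 ± 0.28 in ganglion. The differences of Itgb1 were 0.06 and 0.02 (SE 0.13 each, limma adjusted p = 0.804 and 0.944). Npnt encodes nephronectin, the ligand of the alpha8 integrin. Its means were 9.14 ± 0.33 in carotid body, 5.53 ± 0.20 in adrenal medulla and 5.58 ± 0.17 in ganglion, with differences of 3.61 and 3.56 (limma adjusted p = 6.81e-08 and 1.13e-07). Of the 20 measured genes in this list (22 listed), 6 were called higher and 2 lower against adrenal medulla and 5 higher and 1 lower against ganglion. Those lower than in adrenal medulla were Itgb5 (-1.98) and Itga9 (-1.16), both called higher than in ganglion (2.21 and 2.55), and the 1 lower than in ganglion was Itga3 (-2.19, or -1.32 on carotid body replicate 1 alone). Itgb4, the partner of alpha6 in laminin adhesion, differed by 4.22 and 2.13, or by 4.92 and 2.83 on carotid body replicate 1 alone.

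Around Mgp, Ggcx, the carboxylase that activates Gla proteins, was highest in adrenal medulla, with 11.05 ± 0.28 against 9.57 ± 0.32 in carotid body and 8.78 ± 0.14 in ganglion. Its carotid body difference from adrenal medulla was -1.47 (limma adjusted p = 8.65e-05). Bglap, the bone Gla protein osteocalcin, had means under the bound in every tissue. Of 10 measured genes (12 listed), 2 were higher in carotid body than adrenal medulla and 2 lower, and 4 were higher and none lower than in ganglion. In carotid body both Gas6 and Alpl were called higher than in either other tissue. Gas6, a Gla protein that activates TAM receptors, differed by 1.96 and 2.43, and the alkaline phosphatase Alpl, which promotes mineralisation, by 1.93 and 1.27. Ahsg (fetuin-A), a circulating inhibitor of calcification, was lower than in adrenal medulla (-1.94) and higher than in ganglion (1.35), a call lost on carotid body replicate 1 alone.

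Markers of the cell types known to make such proteins were called in the members' direction in part. Of 12 measured fibroblast markers, 8 were called higher in carotid body than in both other tissues, with a summed log2 signal of 108 to 112 there. Tcf21, a transcription factor of fibroblast lineages, was called lower in carotid body than adrenal medulla, at -1.76. The 8 include Pi16 and Clec3b besides the collagens, so the list shares Col1a1, Col1a2 and Col3a1 with the collagen list. Of 8 smooth muscle markers, 5 were higher than in both (led by Acta2, the smooth muscle actin, by 7.37 and 8.59; sums of 78.1 to 82.5 against 55.8 in adrenal medulla at most and 51.4 in ganglion at most). The same held for 4 of 7 pericyte markers (sums of 70.2 to 73.9, 61.2 to 62.1 and 50.5 to 51.8 in carotid body, adrenal medulla and ganglion) and for 6 of 7 measured adipocyte markers (63.4 to 68.6, 42.9 to 43.7 and 44.6 to 46.4). Of the pericyte genes, Abcc9 differed from adrenal medulla by 1.09 and lost that call without carotid body replicate 1, with median centring and with array weights, 0.87 at the lowest. Chondrocyte markers, checked because Cytl1 and Mgp are known from cartilage, gave 1 of 10, Sox9 (1.44 and 1.19). Another, Cnmd, was called lower in carotid body than in ganglion, at -2.33. The Sox9 difference from ganglion fell under 2-fold without carotid body replicate 3, 0.86 at the lowest over the alternatives. The cartilage genes Acan and Matn1 were under the bound on all carotid body arrays, and Col2a1 had 5.61 ± 0.18 there against a bound of 5.38. None of 5 mesothelial markers was above the bound in carotid body by its mean. The part of each cell type in the members' signal was not tested.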

How the data were processed

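RNA of 11 pooled tissue samples was hybridised to Affymetrix mouse transcriptome arrays, per the labels' protocols. Per the submitters' processing notes, the authors used Affymetrix Expression Console and RMA, which gives log2 signals, with versions and array build not given in the sources used here. The number of arrays limits the precision. The table has 65956 transcript clusters, of which 30604 pair with 1 gene symbol and 2146 with several, which were left out. The cluster with the highest mean was kept for the 355 genes with more than 1, leaving 30142 genes, and each member had 1 cluster.

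All 11 arrays entered 1 limma fit (limma 3.58.1, R 4.3.3; lmFit and eBayes) with tissue as the only factor, Benjamini-Hochberg adjustment over all genes, and a call at an adjusted p under 0.05 with an absolute log2 difference of at least 1. The code of the fit was tried on simulated independent values with known shifts in a small set of genes. That setting is simpler than these tissues, so it does not measure how reliable the calls here are. The background bound, the 95th percentile of the means of 349 vomeronasal receptor and keratin-associated protein genes, was 5.38 for carotid body, 5.35 for adrenal medulla and 5.45 for ganglion. Array values under it were set to it for folds given as "at least". The median signal of the genes tested was 5.63 to 5.84 per array.

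The members and lists were chosen with earlier results of these data known. Named were all members, per related list and contrast up to 4 called genes of largest difference and no overlap, fixed partners and paralogues, up to 3 marker genes per list and contrast, and the nearest protein-coding genes by Pearson's r (3 per member, 10 for the mean profile). Neighbours of the proteoglycan genes (Kera, Epyc, Optc, Prelp) and markers such as Tg, Myh4, Acan, Matn1, Col2a1, Pi16 and Clec3b, and also Igf2r, Fstl3, Smad2, Smad9 and Itga3 were named after their values were seen. Same-numbered arrays deviated from their tissue means with r between -0.17 and 0.25, so the numbers were not taken to pair them. The labels do not say how mice were divided among pools, so p-values measure the spread between these pools. Alternatives left out arrays, changed the normalisation, filter, weights or cluster rule, or added a replicate block.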

Additional observations from a re-analysis of the deposited data

Results flagged for a closer look

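In 52 groups of 4 arrays (members and the other genes whose tissue levels are given), 6 had an array far from the rest by Dixon's criterion at 95%, where chance gives about 1 in 20 groups. Among the members, Dpt on ganglion replicate 2 was 8.48 against 7.50 to 7.59 on the others. Itga8 on adrenal medulla replicate 1 was 9.57, where the other 3 arrays had the same value, 9.42. Among related genes, Ecm2 on ganglion replicate 3 was 9.48 against 9.13 to 9.19. Chrdl1 was 6.20 on adrenal medulla replicate 1 against 5.84 to 5.90, and 8.00 on ganglion replicate 1 against 7.59 to 7.64. Bglap on adrenal medulla replicate 1 was 5.47 against 5.04 to 5.10, and this was the only array of the 11 above the bound for that gene. Of the 6, 3 were on adrenal medulla replicate 1.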

How the results depend on the processing

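The counts of called genes stayed within 1.5 times of those reported under every alternative run. The members called between adrenal medulla and ganglion stayed at 5 higher and 4 lower, and 10 members lay above both other tissues without overlap. Related genes called ranged from 47 to 57 higher and 10 to 13 lower in carotid body against adrenal medulla, 69 to 73 and 4 to 6 against ganglion, and 34 to 39 and 18 to 22 in adrenal medulla against ganglion. With a replicate block the counts were 55 and 10, 71 and 5, and 35 and 19, and 5 and 4 for the members. The alternatives for the covariation of members, and leaving out carotid body replicates 2 and 3 together, were added after seeing the data.

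Centring arrays on their medians moved the median difference of all genes between carotid body and adrenal medulla from 0.05 to -0.10, and the Dcn difference from 4.93 to 4.78. Repeat quantile normalisation gave 5.11 for Dcn there and 2.07 against ganglion. The genes open to naming were 108, most of them picked for a large called difference. Of their 233 called differences, 220 were called under all alternatives and none changed sign. Given that choice, this does not measure how stable the other calls in the lists were. Without carotid body replicates 2 and 3 the tissue has 1 array, whose spread is assumed to be that of the others.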
